A study of Mus musculus with 12 samples.

Results

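ER-associated degradation, or ERAD, is the route by which the endoplasmic reticulum disposes of proteins that fail to fold, and 31 of its genes were followed here in mouse liver. The members were fixed as a list of gene symbols, and each symbol was looked up in the gene column of the deposited expression table, which holds 27109 loci. All 31 were found, each at 1 locus, and all 31 were tested in every comparison used. They fall into 12 genes of substrate lectins and the membrane channel, 8 of ubiquitin enzymes, 8 of extraction factors and 3 other membrane factors.

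Poly(A) RNA was sequenced from livers of C57BL/6 mice in 4 groups of 3 libraries. KO mice (LsATF4-/-) lacked the transcription factor ATF4 in the liver and received tunicamycin at 1 mg/kg; wild-type mice received the same dose; KO mice received 0.3% DMSO, the vehicle; and wild-type mice received 0.3% DMSO. Each injection was intraperitoneal, and livers were taken 6 h later. The labels state neither the promoter driving Cre nor the deleted exons nor the age of the mice. No label says which libraries came from separate animals. The p-values come from the authors' test on these libraries and cannot be said to measure a spread between animals. The 3 KO DMSO libraries were run on lane 5 and the other 9 on lane 4. Lane and group therefore cannot be told apart wherever KO DMSO livers are compared with another group.

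Tunicamycin blocks the first step of N-linked glycosylation, so that glycoproteins misfold in the endoplasmic reticulum and the unfolded protein response is switched on. In ERAD, lectins read the trimmed glycans of a misfolded protein and pass it to a membrane complex of SEL1L, the ubiquitin ligase HRD1 (encoded by Syvn1), derlins and HERP proteins. The chain of ubiquitin added there is gripped by the ATPase VCP and its adaptors, which pull the substrate into the cytosol for the proteasome. Textbook accounts place most of these genes under the transcription factors ATF6 and XBP1, while ATF4 is best known for genes of amino acid supply and redox balance. Hepatocytes secrete large amounts of glycoprotein and depend heavily on this route.

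Some of the promoters carry the DNA elements through which ATF6 and XBP1 are known to act. RefSeq windows of 300 bases on GRCm38.p6, from 250 bases before the transcription start to 50 after it, were matched for 25 of the 31 genes. Derl1, Erlec1, Rnf5, Rnf139, Ube2g2 and Aup1 were not matched. Selk, Vimp and Ufd1l were matched through their current names Selenok, Selenos and Ufd1. The following windows are shown because they hold the longest of the motif matches and belong to 3 of the 4 genes with the largest tunicamycin responses. Capitals mark a motif match, and all windows are written 5′ to 3′ on the gene's strand.
Derl3 (chr10:75893148-75893447, + strand): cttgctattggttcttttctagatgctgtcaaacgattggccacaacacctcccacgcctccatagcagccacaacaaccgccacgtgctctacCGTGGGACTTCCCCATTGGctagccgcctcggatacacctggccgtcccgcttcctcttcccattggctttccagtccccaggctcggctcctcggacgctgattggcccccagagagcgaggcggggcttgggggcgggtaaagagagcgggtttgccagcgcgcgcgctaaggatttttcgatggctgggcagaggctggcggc
Syvn1 (chr19:6046326-6046625, + strand): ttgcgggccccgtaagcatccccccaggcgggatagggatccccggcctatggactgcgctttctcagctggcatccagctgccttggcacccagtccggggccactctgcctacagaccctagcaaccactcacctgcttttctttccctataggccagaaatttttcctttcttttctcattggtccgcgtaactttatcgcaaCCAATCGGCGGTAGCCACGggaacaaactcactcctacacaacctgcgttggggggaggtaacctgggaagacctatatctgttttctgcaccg
Herpud1 (chr8:94386179-94386478, + strand): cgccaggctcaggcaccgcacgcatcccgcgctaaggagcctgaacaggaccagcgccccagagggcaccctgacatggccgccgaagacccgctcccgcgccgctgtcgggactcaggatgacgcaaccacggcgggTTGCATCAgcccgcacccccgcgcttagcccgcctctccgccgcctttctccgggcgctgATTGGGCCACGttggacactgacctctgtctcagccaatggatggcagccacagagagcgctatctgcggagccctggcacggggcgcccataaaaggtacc

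Derl3 and Syvn1 each held 1 ER stress response element (ERSE), searched as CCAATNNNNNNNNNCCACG on both strands. The match began 156 bases before the start in Derl3, on the opposite strand, and 44 bases before it in Syvn1. Of all 32851 windows, 0.119% held this motif. Herpud1 held the short ERSE-II form, ATTGG followed after any single base by CCACG, 52 bases before its start, as did 0.0365% of all windows. The same window also held a C/EBP-ATF response element (CARE), searched as TGATGNAA, 112 bases before the start on the opposite strand. CARE matches are common, at 3.97% of windows, and Faf2 also held one. The unfolded protein response element TGACGTGG was present in Ube2j1 and Vcp and in 0.676% of windows. None of the 4 motifs matched in the other 19 members with a window, Sel1l among them. A further pair of windows is given because Rhbdd1 and Rnf185 were the only members called between genotypes; neither contained any of the 4 motifs, and for Rhbdd1 the first of its 2 windows is shown.
Rhbdd1 (chr1:82316329-82316628, + strand): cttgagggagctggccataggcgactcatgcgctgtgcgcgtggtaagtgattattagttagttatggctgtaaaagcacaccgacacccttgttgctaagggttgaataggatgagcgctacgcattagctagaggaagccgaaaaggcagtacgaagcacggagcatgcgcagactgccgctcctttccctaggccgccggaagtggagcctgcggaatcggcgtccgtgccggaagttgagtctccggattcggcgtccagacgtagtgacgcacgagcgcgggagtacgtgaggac
Rnf185 (chr11:3452907-3453206, - strand): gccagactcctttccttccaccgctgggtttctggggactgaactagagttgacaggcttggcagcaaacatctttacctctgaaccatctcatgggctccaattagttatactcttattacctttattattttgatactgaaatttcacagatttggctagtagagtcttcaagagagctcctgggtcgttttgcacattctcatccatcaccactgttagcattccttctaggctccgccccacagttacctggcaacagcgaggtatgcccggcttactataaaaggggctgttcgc
These matches are descriptions of letters, and no binding was measured.

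The authors' table gives 1 FPKM per locus and group, pooled over 3 libraries by Cuffdiff, so no value per library and no SD can be given. All FPKM below are the authors' values. Log2 ratios were computed from them, and each standard error (SE) was worked back from the deposited test statistic. A gene is said to have risen or fallen only where the q-value in the authors' deposited table was under 0.05. Edem1 lies in a locus merged with its neighbour Arl8b, so its values describe both genes. Because FPKM corrects for length, levels of different genes can be set side by side. In bulk liver, fewer cells of a type and less RNA per cell cannot be told apart.

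Liver identity and genotype were checked first. Of 8 hepatocyte markers, 7 had levels between 81.8 and 3320 FPKM in KO tunicamycin livers, and Alb was listed at 0 in all 4 groups because the program skipped loci with too many fragments. At the locus that holds Atf4 together with Cacna1i, the level was 114 FPKM in KO and 356 FPKM in wild-type tunicamycin livers, a called difference of -1.64 ± 0.29 (log2, SE). After DMSO it was 22.8 FPKM in KO and 46.9 FPKM in wild-type livers, which was not called (q = 0.270 in the authors' deposited table). Transcripts used as markers of adrenal gland, skeletal muscle and fat were high in the KO tunicamycin group. All 7 adrenal markers were above 1 FPKM there, with a summed level of 1272 FPKM, against 23.5 FPKM in wild-type tunicamycin, 6.76 FPKM in KO DMSO and 9.23 FPKM in wild-type DMSO livers. Summed skeletal muscle markers reached 289 FPKM in KO tunicamycin livers and 3.80 FPKM in wild-type tunicamycin livers, and summed fat markers reached 139 FPKM in KO and 8.69 FPKM in wild-type tunicamycin livers. Of the fat markers, Plin1 and Lep were at 0 in wild-type tunicamycin livers. Some of these markers also rose with tunicamycin in wild-type livers, Akr1b7 by 5.26-fold, Acta1 by 11.6-fold and Cidec by 4.06-fold. The source of the transcripts was not tested. These transcripts touch each comparison that uses the KO tunicamycin group, and their part in the results was not tested.

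Tunicamycin raised most of the ERAD machinery in both genotypes. In KO livers 23 of the 31 genes rose and none fell; in wild-type livers 23 rose and 2, Rnf5 and Aup1, fell. Over all loci tested, 18.1% rose and 14.8% fell in KO livers, and 18.1% rose and 19.0% fell in wild-type livers. The median log2 ratio of the 31 genes was 1.14 in KO livers, against 0.01 over all tested loci, and 1.13 in wild-type livers, against -0.02. The summed FPKM of the members was 4537 in KO and 6020 in wild-type tunicamycin livers, against 1020 in KO and 1163 in wild-type DMSO livers.

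**Figure D1:**
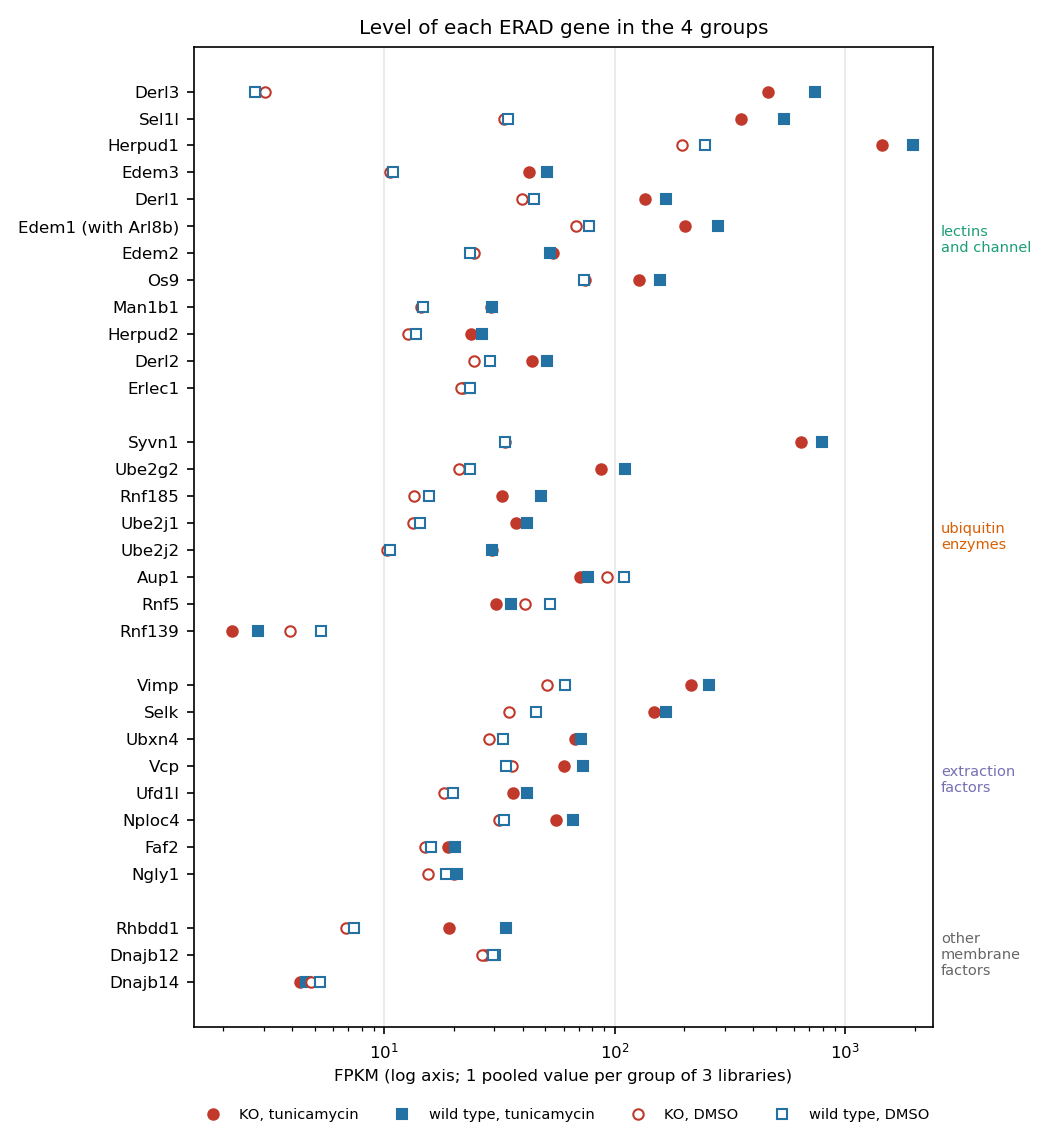
FPKM of each gene on a log axis, 1 pooled value per group, with filled symbols for tunicamycin and open symbols for DMSO, red circles for KO and blue squares for wild type. Filled symbols lie to the right of open ones for most genes, furthest for Derl3, while Erlec1, Dnajb12 and Dnajb14 hardly move and Aup1, Rnf5 and Rnf139 lie to the left.

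The largest single response, that of Derl3, was among the lectins and the channel. Of these 12 genes 11 rose in KO and 11 in wild-type livers, with median log2 ratios of 1.35 in KO and 1.5 in wild type. The share that rose among all tested loci was 18.1% in each genotype, with medians of 0.01 in KO and -0.02 in wild type. Derl3, a derlin that helps form the exit path for soluble substrates, had 461 FPKM in KO and 737 FPKM in wild-type tunicamycin livers, against 3.04 FPKM in KO and 2.74 FPKM in wild-type DMSO livers. It was the lowest of all 31 genes after DMSO in both genotypes and the third highest after tunicamycin. The fold was 152 in KO and 269 in wild-type livers, or 7.25 ± 0.67 in KO and 8.07 ± 0.54 in wild type on the log2 scale. In KO the q in the authors' deposited table was 0.00259, larger than an SE of 0.67 would give. The SE of Derl3 in KO is therefore likely too small. The table places Derl3 in 1 interval with Smarcb1, a chromatin remodelling subunit, whose own level was 57.1 FPKM in KO and 84.2 FPKM in wild-type tunicamycin livers, against 11.9 FPKM in KO and 12.1 FPKM in wild-type DMSO livers. How reads were shared between them is not stated.

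The other derlins had smaller responses. Derl1 had 136 FPKM in KO and 167 FPKM in wild-type tunicamycin livers, against 39.6 FPKM in KO and 44.7 FPKM in wild-type DMSO livers, a log2 response of 1.78 ± 0.20 in KO and 1.90 ± 0.20 in wild type. Derl2 rose by 0.84 ± 0.26 in KO and 0.83 ± 0.25 in wild-type livers. Derl3 made up 72.0% of summed derlin FPKM in KO and 77.2% in wild-type tunicamycin livers, against 4.52% in KO and 3.61% in wild-type DMSO livers.

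Sel1l, the scaffold that links substrate lectins to HRD1, had 353 FPKM in KO and 542 FPKM in wild-type tunicamycin livers, against 33.1 FPKM in KO and 34.6 FPKM in wild-type DMSO livers. The rise was 10.7-fold in KO (3.42 ± 0.26, log2) and 15.6-fold in wild type (3.97 ± 0.28). Herpud1, a short-lived ubiquitin-like membrane protein that gathers the HRD1 complex, was the most abundant member in all 4 groups. Its level was 1438 FPKM in KO and 1978 FPKM in wild-type tunicamycin livers, against 196 FPKM in KO and 247 FPKM in wild-type DMSO livers. Its log2 response was 2.87 ± 0.27 in KO and 3.0 ± 0.29 in wild type. Herpud2, its paralogue, stayed far lower, at 23.8 FPKM in KO and 26.6 FPKM in wild-type tunicamycin livers, and rose by 0.90 ± 0.20 in KO and 0.95 ± 0.20 in wild type.

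Among genes that act on glycans, the EDEM proteins trim mannose from misfolded glycoproteins and so mark them for disposal. Edem3 had 42.5 FPKM in KO and 50.8 FPKM in wild-type tunicamycin livers, against 10.6 FPKM in KO and 10.9 FPKM in wild-type DMSO livers, a response of 2.0 ± 0.20 in KO and 2.22 ± 0.20 in wild type. The merged Edem1 locus rose by 1.57 ± 0.25 in KO and 1.85 ± 0.25 in wild type. Edem2 rose by 1.14 ± 0.20 in KO and 1.16 ± 0.20 in wild type, and the mannosidase gene Man1b1 by 1.0 ± 0.19 in KO and 0.99 ± 0.19 in wild type.

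The lectins that receive the trimmed glycans split. Os9 rose by 0.78 ± 0.21 in KO and 1.10 ± 0.21 in wild-type livers, to 127 FPKM in KO and 158 FPKM in wild type. Erlec1, which encodes a lectin of the same family, had 22.0 FPKM in KO and 23.3 FPKM in wild-type tunicamycin livers, against 21.7 FPKM in KO and 23.7 FPKM in wild-type DMSO livers. It was the 1 gene of this class with no call, and its response lay between -0.45 and 0.49 in KO and between -0.48 and 0.44 in wild type (95% intervals, log2). Os9 was thus 5.78 times as abundant as Erlec1 in KO and 6.75 times in wild-type tunicamycin livers, against 3.42 times in KO and 3.10 times in wild-type DMSO livers.

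**Figure D2:**
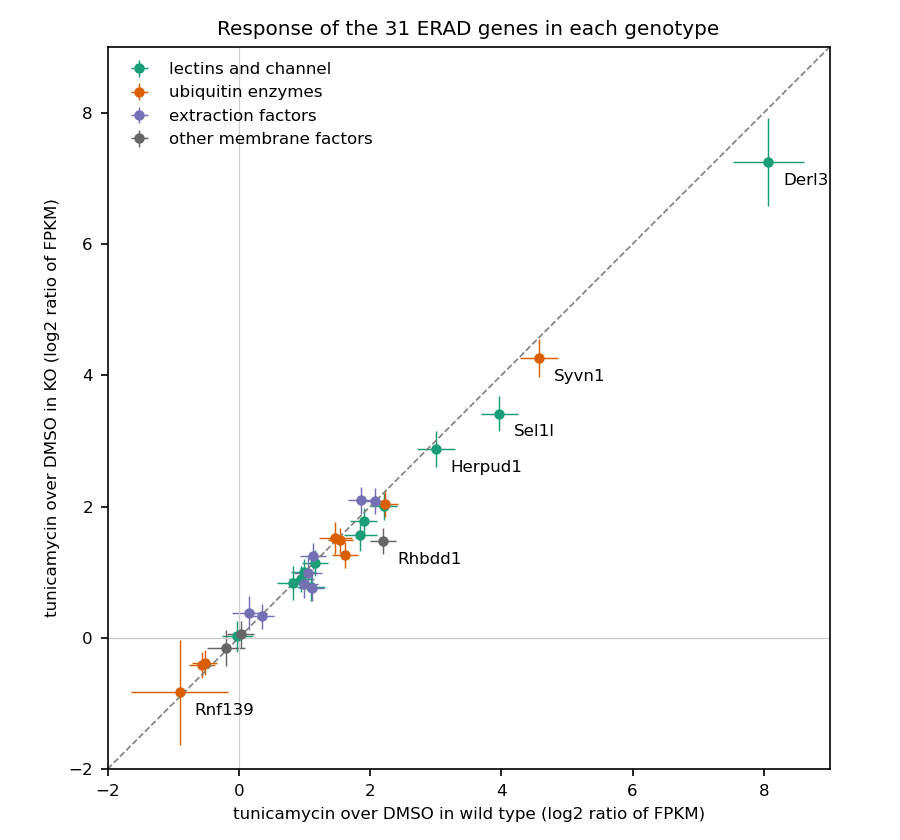
Log2 ratio of tunicamycin over DMSO for each gene in wild type (x axis) and KO (y axis); bars are SE and the dashed line marks equal responses. Derl3 lies at the top right with 7.25 in KO and 8.07 in wild type, Rhbdd1 lies below the line with 1.48 in KO and 2.19 in wild type, and most genes lie close to it.

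Of the 8 ubiquitin enzymes, 5 rose in KO and none fell, while 5 rose and 2 fell in wild type. The median log2 ratios were 1.37 in KO and 1.51 in wild type. Over all tested loci 18.1% rose in each genotype, and 14.8% fell in KO and 19.0% in wild type. With only 8 genes, 2 falls are near that share and are no result about the class. Syvn1, the gene of the ligase HRD1, had 642 FPKM in KO and 796 FPKM in wild-type tunicamycin livers, against 33.5 FPKM in KO and 33.3 FPKM in wild-type DMSO livers. The fold was 19.2 in KO (4.26 ± 0.29, log2) and 23.9 in wild type (4.58 ± 0.29). Syvn1 and Sel1l were at close to equal levels after DMSO, with a Syvn1 to Sel1l ratio of 1.0 in KO and 0.962 in wild type, and the ratio was 1.82 in KO and 1.47 in wild type after tunicamycin.

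Ube2g2, a ubiquitin-conjugating enzyme of the cytosolic face, had 86.9 FPKM in KO and 111 FPKM in wild-type tunicamycin livers, against 21.2 FPKM in KO and 23.5 FPKM in wild-type DMSO livers. It rose by 2.04 ± 0.20 in KO and 2.23 ± 0.20 in wild type. Ube2j1 and Ube2j2, conjugating enzymes anchored in the membrane, rose by 1.49 ± 0.19 and 1.51 ± 0.24 in KO and by 1.55 ± 0.19 and 1.47 ± 0.24 in wild type. Aup1, the lipid droplet protein that recruits Ube2g2, did not follow it. Its level was 71.0 FPKM in KO and 76.8 FPKM in wild-type tunicamycin livers, against 92.2 FPKM in KO and 110 FPKM in wild-type DMSO livers. The log2 ratio of Aup1 was -0.38 ± 0.19 in KO (q = 0.147 in the authors' deposited table) and -0.52 ± 0.19 in wild type (q = 0.0234 in the same deposited table).

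Rnf5, a small membrane ligase, showed a like pattern, with 30.6 FPKM in KO and 35.6 FPKM in wild-type tunicamycin livers, against 40.7 FPKM in KO and 52.5 FPKM in wild-type DMSO livers. The log2 ratio was -0.41 ± 0.20 in KO (q = 0.132 in the authors' deposited table) and -0.56 ± 0.20 in wild type (q = 0.0253 in that deposited table). That Aup1 and Rnf5 were called in wild type and not in KO does not show a difference between genotypes: KO minus wild type was 0.14 for Aup1 (95% interval -0.39 to 0.67) and 0.15 for Rnf5 (-0.41 to 0.71). Rnf139, another membrane ligase, had 2.19 FPKM in KO and 2.85 FPKM in wild-type tunicamycin livers, against 3.90 FPKM in KO and 5.32 FPKM in wild-type DMSO livers, with no call in either genotype. Its SE of 0.80 in KO and 0.74 in wild type was among the widest of the 31.

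The extraction factors rose to a smaller degree. Of 8 genes, 6 rose in KO and 6 in wild type, and the median log2 ratio was 0.91 in KO and 1.08 in wild type. Among all tested loci 18.1% rose in each genotype, with medians of 0.01 in KO and -0.02 in wild type. Vcp, the ATPase that pulls substrates from the membrane, had 60.1 FPKM in KO and 73.2 FPKM in wild-type tunicamycin livers, against 35.7 FPKM in KO and 33.9 FPKM in wild-type DMSO livers. Its response was 0.75 ± 0.19 in KO and 1.11 ± 0.19 in wild type. The paired adaptors Ufd1l and Nploc4 rose by 0.99 ± 0.24 and 0.83 ± 0.22 in KO, and by 1.06 ± 0.22 and 0.99 ± 0.22 in wild type. The ratio of Vcp to Ufd1l was 1.66 in KO and 1.76 in wild type after tunicamycin, and 1.96 in KO and 1.70 in wild type after DMSO.

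The largest rises of this class belonged to a pair of selenoproteins that hold VCP at the membrane. Vimp, which encodes selenoprotein S, had 215 FPKM in KO and 257 FPKM in wild-type tunicamycin livers, against 50.7 FPKM in KO and 60.9 FPKM in wild-type DMSO livers. Selk, which encodes selenoprotein K, had 148 FPKM in KO and 167 FPKM in wild-type tunicamycin livers, against 34.8 FPKM in KO and 45.6 FPKM in wild-type DMSO livers. Ubxn4, a membrane anchor of VCP, rose by 1.24 ± 0.20 in KO and 1.13 ± 0.20 in wild type. Faf2, which also brings VCP to the membrane, was not called, at 0.33 ± 0.19 in KO and 0.35 ± 0.19 in wild type. Ngly1, the enzyme that strips N-glycans from extracted proteins, had 20.1 FPKM in KO and 20.8 FPKM in wild-type tunicamycin livers, against 15.5 FPKM in KO and 18.6 FPKM in wild-type DMSO livers, and was not called.

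Of the 3 other membrane factors only Rhbdd1, a rhomboid protease that cleaves ubiquitinated membrane proteins, rose. It had 19.1 FPKM in KO and 33.9 FPKM in wild-type tunicamycin livers, against 6.85 FPKM in KO and 7.41 FPKM in wild-type DMSO livers. With 18.1% of all tested loci rising in each genotype, a single rise among 3 genes is no result about this class. The J-domain gene Dnajb12 had 27.4 FPKM in KO and 30.2 FPKM in wild-type tunicamycin livers, against 26.5 FPKM in KO and 29.5 FPKM in wild-type DMSO livers. Its relative Dnajb14 had 4.33 FPKM in KO and 4.60 FPKM in wild-type tunicamycin livers, against 4.83 FPKM in KO and 5.27 FPKM in wild-type DMSO livers. Both encode membrane partners of HSP70, and the 95% intervals of their wild-type responses ran from -0.37 to 0.44 for Dnajb12 and from -0.77 to 0.38 for Dnajb14.

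The 4 genes with the largest responses, Herpud1, Syvn1, Derl3 and Sel1l, were picked for those responses, so a larger share after the drug follows from the choice and is given as a description. They held 63.8% of the summed member FPKM in KO and 67.3% in wild-type tunicamycin livers, against 26.1% in KO and 27.3% in wild-type DMSO livers. Extraction factors held 13.7% in KO and 11.9% in wild type after tunicamycin, against 22.6% in KO and 22.4% in wild type after DMSO, although their own summed level was higher after the drug, at 621 FPKM in KO and 716 FPKM in wild-type tunicamycin livers, against 230 FPKM in KO and 261 FPKM in wild-type DMSO livers. Aup1 was the second most abundant member after DMSO and the eleventh after tunicamycin in both genotypes.

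**Figure D3:**
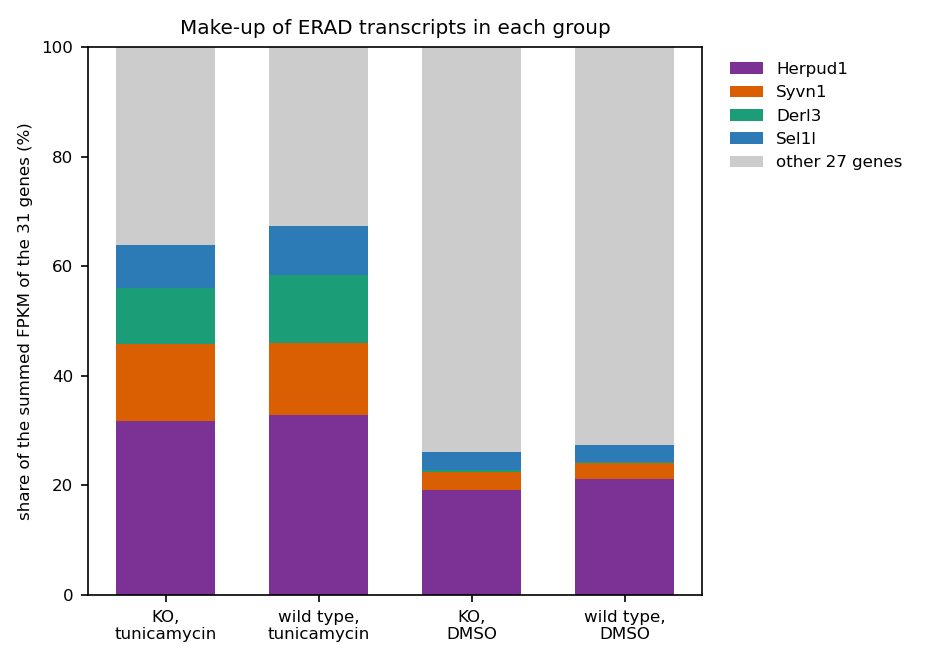
Share of the summed FPKM of the 31 genes held by the 4 genes with the largest responses and by the rest, as stacked bars in percent for each group. The 4 genes were picked for their responses; they hold 63.8% in KO and 67.3% in wild-type tunicamycin livers, against 26.1% in KO and 27.3% in wild-type DMSO livers.

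The comparison of genotypes under tunicamycin asks whether this rise needs ATF4. Of the 31 genes, 2 were lower in KO livers and none was higher, where 2.19% of all tested loci were lower and 3.73% higher. The called pair were Rhbdd1 and Rnf185. Rhbdd1 (mm9 chr1:82313154-82441941) was lower by a log2 ratio of -0.83 ± 0.19, or 0.563-fold, with q = 0.000396 in the authors' deposited table. That is the smallest deposited q, and it is a tied floor. In the tunicamycin responses 22 members shared it in wild type and 18 in KO. Rnf185 (mm9 chr11:3315976-3379834), the gene of a membrane ubiquitin ligase, had 32.4 FPKM in KO and 47.9 FPKM in wild-type tunicamycin livers, against 13.5 FPKM in KO and 15.7 FPKM in wild-type DMSO livers. Its genotype ratio under tunicamycin was -0.56 ± 0.19, or 0.677-fold, with q = 0.0170 in the authors' deposited table. That table adjusts over all 6 of its comparisons; adjusted within this comparison alone, Rnf185 had q = 0.0815 and was not called.

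The remaining 29 genes were not called, yet nearly all pointed the same way. In 29 of the 31 genes, the called pair included, the KO level under tunicamycin was below the wild-type level (93.5%, against 56.1% of all tested loci), and the median log2 ratio was -0.22, against -0.04 over all tested loci. The exceptions were Edem2 at 0.05 and Ube2j2 at 0.00. Derl3 had a ratio of -0.68 (95% interval -1.46 to 0.11) and Sel1l of -0.62 (-1.26 to 0.02). Their q-values in the authors' deposited table were 0.237 for Derl3 and 0.164 for Sel1l. For Herpud1 the ratio was -0.46 (-1.11 to 0.20), for the Edem1 locus -0.47 (-1.01 to 0.07) and for Syvn1 -0.31 (-0.95 to 0.33). By class the median was -0.28 for lectins and channel, -0.26 for ubiquitin enzymes, -0.18 for extraction factors and -0.14 for the other membrane factors. Hepatocyte markers lay on the same side: 7 of 7 tested were below wild type, with a median of -0.25, and Hnf4a (-0.63) and G6pc (-0.71) were called lower. Endothelial markers did too, with 8 of 8 below wild type, a median of -0.34, and Lyve1 (-0.63) and Clec4g (-0.60) called lower. Other cell markers did not all do so. Stellate cell markers were above wild type in 4 of 7, with a median of 0.01. Des (2.12) was called higher, in the group where skeletal muscle markers were high too. Macrophage markers were below wild type in 5 of 6, with a median of -0.08 and none called. Both of the 2 tested plasma cell markers were above wild type, with none called. They say little about plasma cells. Mzb1 had 0.514 FPKM in KO and 0.441 FPKM in wild-type tunicamycin livers, while Sdc1 had 79.7 FPKM in KO and 57.7 FPKM in wild type. ER chaperone genes had all 15 tested members below wild type, none called, with a median of -0.24. The part of the marker shifts, and of the adrenal, muscle and fat transcripts given above, in the ERAD values was not tested.

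**Figure D4:**
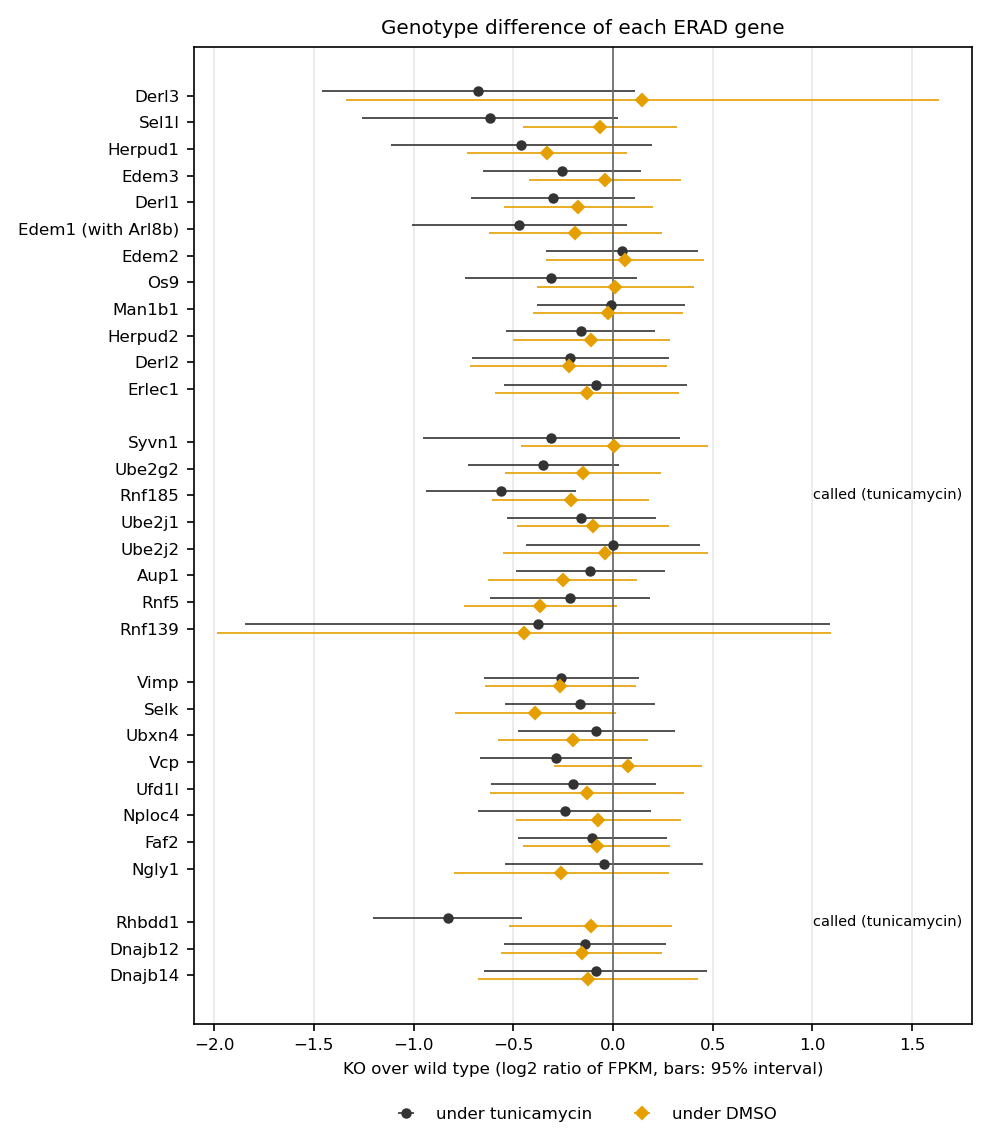
Log2 ratio of KO over wild type for each gene under tunicamycin (dark circles) and under DMSO (orange diamonds), with 95% intervals worked back from the deposited statistics. Under tunicamycin the intervals of Rhbdd1 (-0.83) and Rnf185 (-0.56) lie wholly below 0.

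Without the drug, no member differed between genotypes by the deposited test: 0 of 31 were called in KO against wild-type DMSO livers, and 0 had an unadjusted p under 0.05. Over all tested loci 1.39% were higher and 1.47% lower in KO DMSO livers. The smallest q of the 31 in the authors' deposited table was 0.169, at Selk, with a log2 ratio of -0.39 ± 0.21. Rhbdd1 had a ratio of -0.11 (95% interval -0.52 to 0.30) and Rnf185 of -0.21 (-0.61 to 0.18). Levels were below wild type in 26 of the 31 genes (83.9%), with a median of -0.13, against 59.1% and -0.07 over all tested loci. The shift was not particular to these genes. Of 31 proteasome genes 96.8% were below wild type (median -0.23), and of 47 other ERAD genes 78.7% (median -0.11). ER chaperone genes went the other way, with 29.4% of 17 below wild type (median 0.05). The lane of the KO DMSO libraries cannot be told apart from genotype here. Endothelial markers were higher in KO DMSO livers, with 7 of 8 called and a summed level of 138 FPKM in KO and 90.3 FPKM in wild-type DMSO livers. Stellate cell markers were above wild type in 7 of 7, with 4 called higher and a median of 0.59, and the fat marker Cfd was called 15.1-fold higher. The part of these markers in the ERAD values was not tested.

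Whether the response itself differed between genotypes was tested by comparing each gene's tunicamycin response in KO with that in wild type. Over all 14510 loci tested in both genotypes, 146 differed (1.01%), and no member did; 1 member, Rhbdd1, had an unadjusted p under 0.05. The response of Rhbdd1 was 1.48 ± 0.20 in KO and 2.19 ± 0.20 in wild type, a difference of -0.72 (95% interval -1.27 to -0.16) with an adjusted p of 0.437 (z test across all loci, Benjamini-Hochberg adjustment). Rnf185 responded by 1.26 ± 0.20 in KO and 1.61 ± 0.20 in wild type, a difference of -0.35 (-0.90 to 0.20). For Derl3 the difference was -0.82 (-2.51 to 0.86), for Sel1l -0.55 (-1.30 to 0.20), for Vcp -0.36 (-0.89 to 0.18) and for Syvn1 -0.32 (-1.12 to 0.48). The interval of Derl3 is likely too narrow, because its SE in KO is smaller than its deposited q implies. Of the 31 differences 18 were below 0 (58.1%), against 45.6% over all loci. In simulated data of the same size the test recovered 24% of log2 differences of 1 and 71% of differences of 2. The simulated differences were placed at loci drawn at random from all 14510, so these rates are not those of the members. The simulated noise was drawn with the same SEs that the test uses, so the simulation cannot show whether those SEs are right. Among the members the SE of the difference ran from 0.27 at Faf2 to 1.09 at Rnf139. Recovery at the members alone was not simulated, and a modest difference of 1 gene may go uncalled.

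The rest of the pathway was read from a list of 48 further ERAD genes, of which 47 were found and tested. In KO tunicamycin livers 17 rose and 3 fell, and in wild-type livers 16 rose and 4 fell, with median log2 ratios of 0.32 in KO and 0.34 in wild type. Over all tested loci 18.1% rose and 14.8% fell in KO, with a median of 0.01, and 18.1% rose and 19.0% fell in wild type, with a median of -0.02. Uggt2, which adds glucose back to unfolded glycoproteins, had 14.0 FPKM in KO and 21.1 FPKM in wild-type tunicamycin livers, against 1.22 FPKM in KO and 0.979 FPKM in wild-type DMSO livers. It had the largest wild-type response of the list, 4.42 ± 0.27, and was the 1 gene called lower in KO under tunicamycin, at -0.59 ± 0.20 with q = 0.0180 in the authors' deposited table; 1 of 47 is near the 2.19% of all tested loci that were lower. The lectin chaperone Calr followed in wild type with 2.82 ± 0.34, then the disulfide reductase Dnajc10 with 1.99 ± 0.20 and Uggt1, the paralogue of Uggt2, with 1.84 ± 0.22.

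Svip, which encodes a small inhibitor of ERAD that binds VCP, had the largest fall in wild type. Its level was 3.31 FPKM in KO and 2.57 FPKM in wild-type tunicamycin livers, against 7.14 FPKM in KO and 8.35 FPKM in wild-type DMSO livers, a response of -1.11 in KO and -1.70 in wild type.

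ER chaperones and the proteasome stand on either side of ERAD in the life of a misfolded protein. Of 15 ER chaperone genes that could be tested, 12 rose in KO and 12 in wild-type livers, with medians of 2.49 in KO and 2.95 in wild type. Over all tested loci 18.1% rose in each genotype, with medians of 0.01 in KO and -0.02 in wild type. Hspa5 and Hsp90b1 were skipped by the program under tunicamycin and are listed at 0 there. Of 31 proteasome subunit genes, 1 rose and none fell in KO, while 1 rose and 6 fell in wild type, and the medians were -0.06 in KO and -0.19 in wild type. The 6 falls are close to the 19.0% of all tested loci that fell in wild type, and so are no result about the proteasome. The gene that rose was Psmd8 in both genotypes, at 131 FPKM in KO and 126 FPKM in wild-type tunicamycin livers, against 74.0 FPKM in KO and 84.6 FPKM in wild-type DMSO livers. Of a list of 24 ATF4 target genes, 14 of 22 tested were lower in KO than in wild-type tunicamycin livers, with a median of -0.93. In that comparison 2.19% of all tested loci were lower, with a median of -0.04, and the median of the ERAD members was -0.22. With tunicamycin, 15 of 21 tested genes of the list rose and 2 fell in KO livers, with a median of 2.78. In wild-type livers 17 of 22 rose and 1 fell, with a median of 4.91. The list was chosen with earlier results of these data known.

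**Figure D5:**
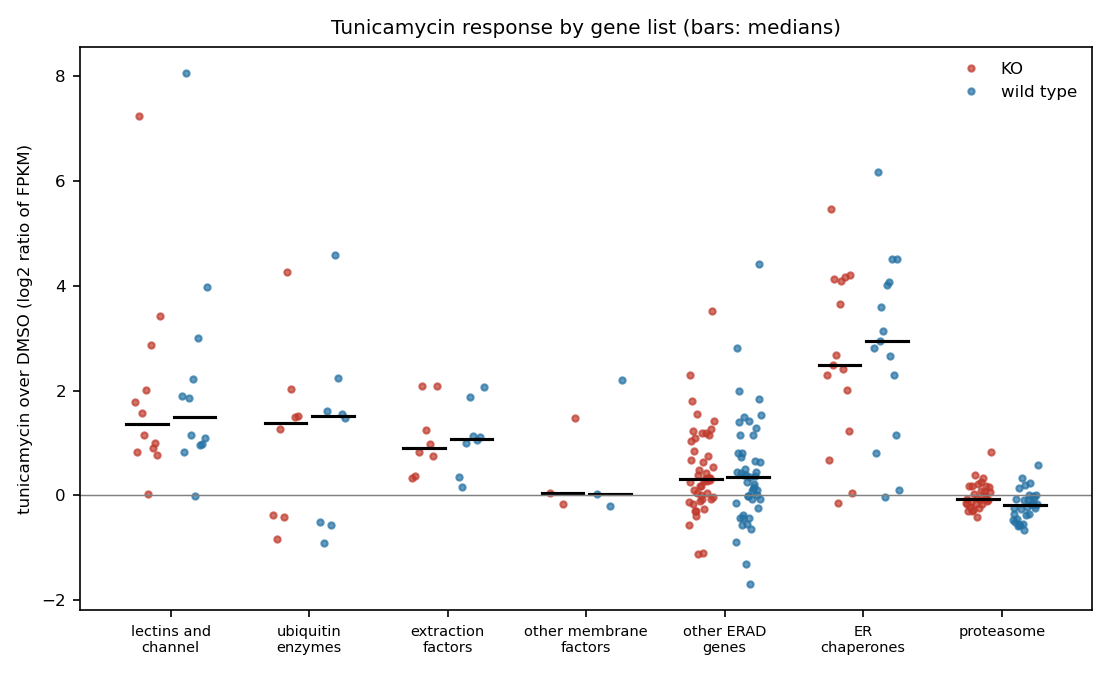
Log2 ratio of tunicamycin over DMSO for each tested gene, by list, in KO (red) and wild type (blue); black bars are medians. In wild type the medians are 1.5 for lectins and channel, 1.51 for ubiquitin enzymes, 1.08 for extraction factors, 2.95 for ER chaperones and -0.19 for the proteasome.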

How the data were processed

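RNA of flash-frozen livers was isolated with TRIzol and given ERCC spike-ins, and libraries were made with the Illumina TruSeq RNA kit, per the labels' protocols. Per the submitters' processing notes, bcl2fastq, TopHat2 2.0.4, Cufflinks, Cuffdiff and genome build mm9 were used; the annotation, strand setting and whether spike-ins entered the scaling are not stated. The authors deposited 1 FPKM per locus and group, pooled over 3 libraries, so counts, depth and spread per library are not known. For 6 comparisons the deposited table also holds log2 fold changes, a test statistic (a score), p-values and q-values. The deposited q-values equal a Benjamini-Hochberg adjustment over all 90828 tests of the 6 comparisons, and the smallest deposited p-value is 5e-05. Locus starts were read as counted from 0.

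Log2 ratios were recomputed from FPKM, KO over wild type and tunicamycin over DMSO, and matched the deposited ones. For the SE, the ratio was divided by the statistic times 1 scale per comparison (1.73 to 1.74), set by the median match to deposited p-values between 0.0002 and 0.5. At large ratios such an SE can be smaller than the deposited test implies, as for Derl3 in KO livers. Responses of the genotypes were compared by a z test on the difference, adjusted by Benjamini-Hochberg, and the procedure was tested on simulated data. Python 3.11.15, numpy 2.4.6, pandas 2.3.3 and scipy 1.17.1 were used.

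The members, gene lists and tests were chosen with earlier results of these data known. All members are accounted for; full values are given for members called between genotypes and for the 6 largest and 4 smallest wild-type responses, and for further members as examples. For the other ERAD genes, those named are the one called between genotypes, the 4 largest rises and, by the same rule, the 3 largest falls in wild type, of which 2 are not reported here. Alternatives were the adjustment within 1 comparison, q under 0.01, a minimum of 1 FPKM, a minimum of 1.5-fold, a pseudocount of 1 FPKM, centring, and leaving out merged loci. Proteins are not used here.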

Additional observations from a re-analysis of the deposited data

How the results depend on the processing

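The count of 2 members called between KO and wild-type tunicamycin livers was 1 when q was adjusted within that comparison, 1 at q under 0.01 and 1 with a minimum of 1.5-fold; each time Rhbdd1 stayed called and Rnf185 did not. At q under 0.01 and at 1.5-fold, the falls of Rnf5 and Aup1 in wild type were also lost. All other alternatives of the counts and medians, 36 values, stayed within 1.5 times of the count or 0.1 of the median log2 ratio. Many of these could not change: the lowest member level in any group was 2.19 FPKM, so the 1 FPKM minimum removed nothing. A count of 0 cannot fall under a stricter q, a minimum fold or fewer loci. Of the 250 values for single members, 7 lost their call. The pseudocount and centring left the deposited q as it was, so no call could be lost under them. The sign could change only under centring, and did not. Leaving out a library was not run, because the values are pooled. No paired analysis was possible because the labels give no replicate numbers and each group has 1 pooled value. Depth is unknown, and KO DMSO libraries share a lane of their own.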

Other observations

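Some members lie in 1 interval of the table with another gene, and values of 3 neighbours are given here. Mis12, a kinetochore gene beside Derl2, had 20.6 FPKM in KO and 24.2 FPKM in wild-type tunicamycin livers, against 8.83 FPKM in KO and 8.86 FPKM in wild-type DMSO livers, and like Derl2 it rose in both genotypes. Mrpl49, a mitochondrial ribosome gene beside Syvn1, had 12.7 FPKM in KO and 12.0 FPKM in wild-type tunicamycin livers, against 18.6 FPKM in KO and 22.7 FPKM in wild-type DMSO livers; it was not called, and its wild-type log2 response had a 95% interval of -6.01 to 4.18. Ndufb9, a respiratory complex gene beside Rnf139, had 221 FPKM in KO and 234 FPKM in wild-type tunicamycin livers, against 343 FPKM in KO and 401 FPKM in wild-type DMSO livers, and it fell in both genotypes.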
